A study of Saccharomyces cerevisiae with 55 samples.

Results

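The genes described here encode the proteins of the large subunit of the cytoplasmic ribosome of budding yeast, Saccharomyces cerevisiae. They were taken by symbol: RPL followed by a digit, plus the stalk genes RPP0, RPP1A, RPP1B, RPP2A and RPP2B, leaving out RPL7A, RPL7B, RPL22A and RPL22B. The rule used no measured value and found 76 genes of the 6249 genes or probes on the arrays, each with its own probe. Of the 76 genes, 10 are single-copy, 61 belong to duplicated families (30 families with both copies measured) and 5 form the stalk.

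The series asked how inositol pyrophosphates, signalling molecules made by the kinases Kcs1 and Vip1, act on the stress response of yeast. All strains were W303 of mating type MatA, and the mutants were made by homologous recombination: wild type ACY044, kcs1/vip1 (ACY236), vip1 (ACY211), kcs1 (ACY209), ipk1 (ACY237), arg82 (ACY207), rpd3 (ACY433), snt1 (ACY591), Vip1D487A (ACY584) and Rpd3ibs (ACY614). Cells grew in YEPD to mid-log phase, here called log growth, and some then received 0.375 M KCl, 0.4 mM H2O2, 42 °C heat, 200 nM rapamycin, or rapamycin together with KCl, for 20 min. Each array set 2 RNA samples against each other, and 54 arrays fell into 27 comparisons: wild type under each stress over wild type in log growth, each mutant over wild type in log growth and in KCl, kcs1/vip1 over wild type in H2O2 and heat, and 3 comparisons within kcs1/vip1. There were 3 arrays in 7 comparisons, 2 in 13 and a single one in 7. The labels do not say whether replicate arrays came from separate cultures, so p-values measure the spread between these arrays, which may be technical, and how many clones stand behind a strain is not given.

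The large subunit holds the centre where peptide bonds are formed and the tunnel through which the new chain leaves, and its stalk recruits the translation factors. Most ribosomal protein genes of budding yeast are kept as pairs of copies from an ancient genome duplication, with proteins that are the same or nearly so. Their transcription depends on the factors Rap1, Fhl1 and Ifh1, and is known to fall when cells are stressed or when the TOR kinase is inhibited by rapamycin.

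Every value is the log2 of a ratio of 2 RNA samples, so that 1 is a 2-fold difference and a negative value means a lower share of the RNA in the treated or mutant cells. The log base is not stated in the sources used here and was read as 2. A ratio says nothing of the absolute level, and levels of different genes were not compared. Copies of a family have similar sequences, and whether their probes measure 1 copy each was not tested. A member was called as having risen or fallen at a Benjamini-Hochberg adjusted p under 0.05 in limma's moderated test, adjusted over all genes tested. Calls of all genes change with the processing too. Where a count under another processing has no share of all genes beside it, it was not set against all genes.

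The arrays held values for 5216 to 6206 genes or probes, and their medians over all genes lay between -0.09 and 0.38. Where a deleted gene had a value on a mutant array it read far below 0, as KCS1 did in kcs1/vip1 (-7.41 to -7.08 on 3 arrays), with 2 exceptions. KCS1 stood at -0.30 on array 2 labelled kcs1 in log growth, and VIP1 at -0.01 on the array labelled kcs1/vip1 in heat. Arrays labelled ipk1 and rpd3 carried no value for the deleted gene. Replicate arrays of Vip1D487A in log growth had a correlation over all genes of 0.02, and array 2 of ipk1 in KCl had 0.09 and 0.16 with the other arrays of its group.

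The members were well covered on most arrays. All 76 had a value on 40 of the 54 arrays, and 192 of 4104 member values were missing, on 4 slides only. The first array of arg82 in log growth held 43 members, the first of vip1 in log growth 45, the first of arg82 in KCl 51 and the first of vip1 in KCl 57, all on 1 slide. Array 1 of snt1 and of Vip1D487A in log growth held 55 and 58 members, on another. RPL1A, RPL1B, RPL5, RPP1B and RPP2B had the fewest values, 44 of 54, and 34 members had a value everywhere. Measured from the member median of each array, 29 of the 42 members missing somewhere had a median above 0. Of the 34 complete ones, 5 did.

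**Figure D1:**
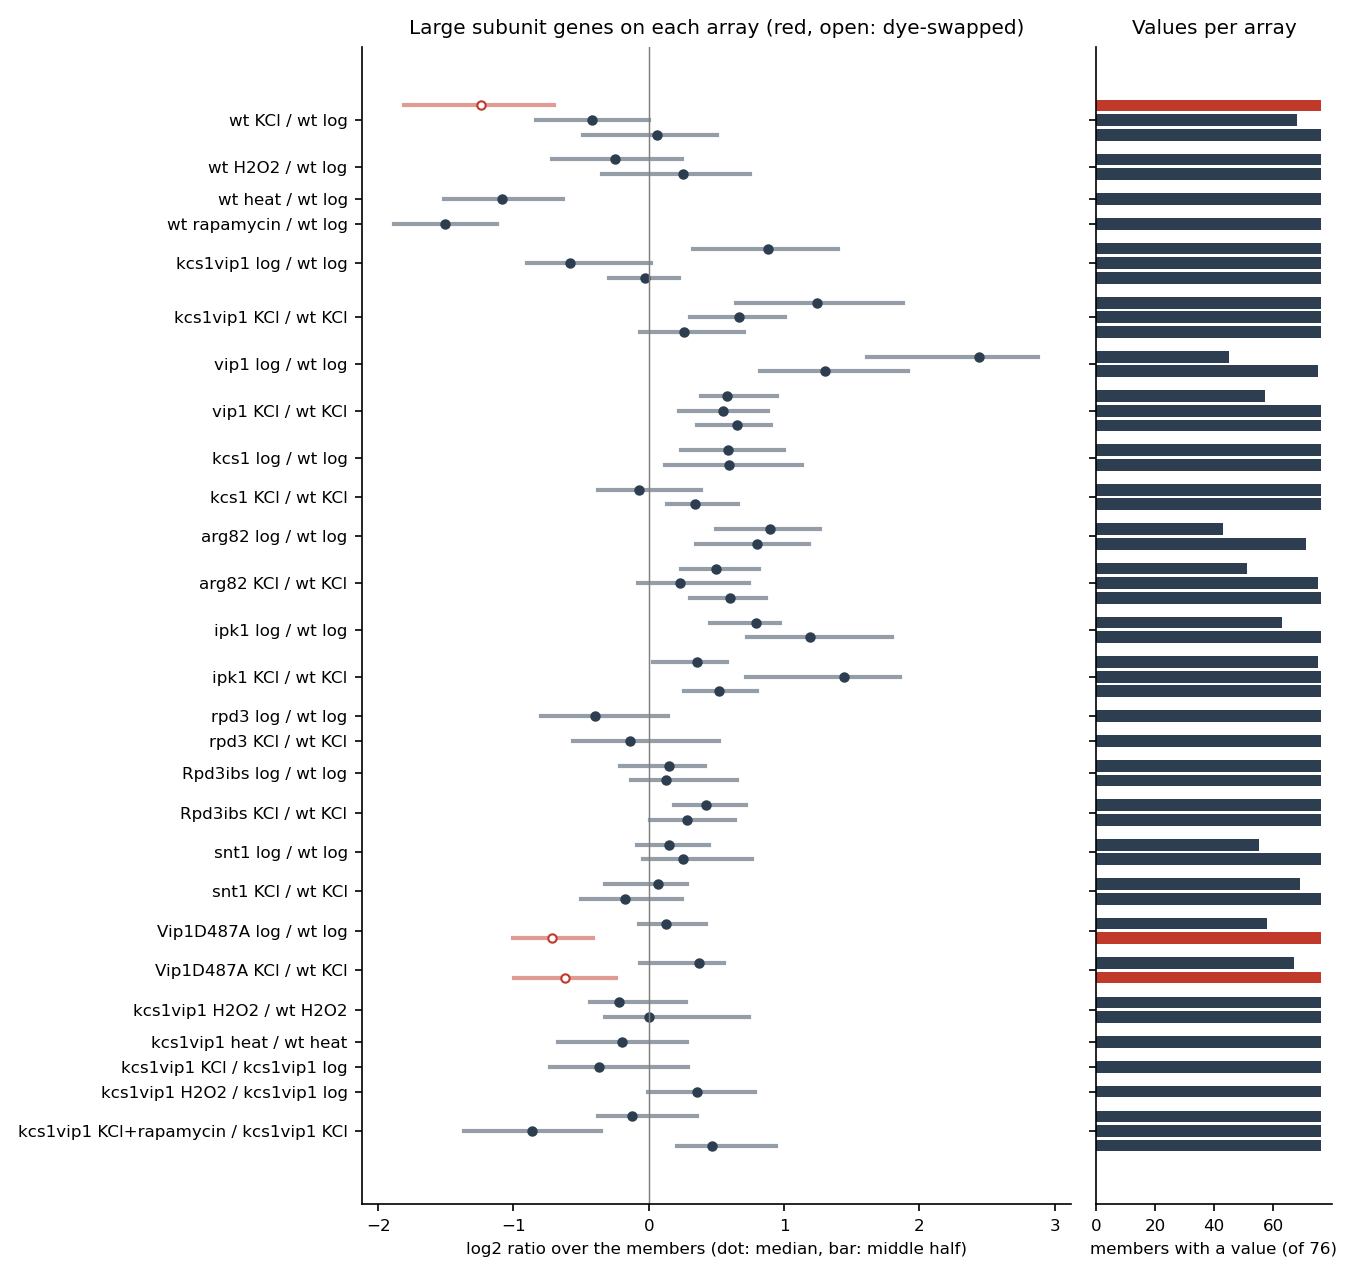
Left, the median (dot) and the range from the 25th to the 75th percentile (bar) of the log2 ratios of the members on each of 54 arrays, grouped by comparison as treated or mutant RNA over reference RNA, with dye-swapped arrays in red and open. Right, the number of members with a value, out of 76. The medians run from -1.50 in wild type with rapamycin to 2.44 on the first array of vip1 in log growth, and all 3 dye-swapped arrays lie below 0.

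The members moved together from array to array, also between replicates of 1 comparison. In wild type after KCl the median over members was -1.24, -0.42 and 0.06 on the 3 arrays, and in kcs1/vip1 in log growth it was 0.88, -0.59 and -0.03. For kcs1/vip1 given rapamycin with KCl over KCl alone it was -0.13, -0.86 and 0.47. The medians over all genes of these arrays lay between -0.05 and 0.01. Once each array was set against its own member median, the spread of a member between replicates fell in 18 of 20 replicated groups, the exceptions being snt1 and kcs1 in log growth.

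Dye orientation moved with the members too. On 3 arrays (array 1 of wild type in KCl and array 2 of Vip1D487A in log growth and in KCl) the treated or mutant RNA lay in the Cy3 channel instead of Cy5. A dye term fitted to all arrays, coded 1 for unswapped and -1 for swapped, had a median of 0.53 over the members, against -0.01 over all genes. It was above 0 for 71 of 76 members, and 28 of them passed the test in that direction, against 4.98% of all genes. The term was largest for RPL38 (1.37), RPP2B (1.32), RPL4A (1.13), RPL16B (1.06), RPP1B (1.01), RPL14A (1.00), RPP2A (1.00) and RPL10 (1.00). For RPP2B, RPL4A, RPL16B, RPP1B and RPL10 it came from wild type in KCl alone, with 1 swapped array. Member medians also differed between replicate arrays of the same orientation, as given above for kcs1/vip1 in log growth. An offset of a swapped array and an effect of dye thus cannot be told apart. Within wild type in KCl, where arrays of both orientations correlated over all genes (0.89 and 0.91), the median was 0.58. The sign of the swapped Vip1D487A arrays, which also enter the term, is less certain, since their correlations with the unswapped ones were 0.02 and 0.15. All 40 unswapped arrays of a mutant over wild type share 1 orientation, and 32 of them had a member median above 0, from -0.59 to 2.44 with a median of 0.37. For that reason counts with a dye term are given below, and its part in results on unswapped arrays alone was not tested.

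In wild type cells KCl lowered a limited set of members strongly. On all 3 arrays 32 members lay below 0 and 2 above, counts that were not made for all genes. Of 76 members tested, 21 fell, against 31.3% of all genes tested, and 1 rose, against 29.6%. The share that fell, 27.6%, was thus near that of all genes. The median of the member means was -0.51, with 0.00 over all genes. Fitted with a dye term, 32 fell and 1 rose, without the dye-swapped array 12 fell and 8 rose, and with arrays scaled to the same spread 9 fell. The shares of all genes under these settings are not given here.

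The lowest means belonged to single copies of duplicated genes. RPL18B (YNL301C) stood at -3.24, -2.95 and -3.34 on the 3 arrays, a mean of -3.18 ± 0.20 (SD, n = 3, adjusted p = 4.35e-15 in limma). RPL9B (YNL067W), whose protein lies near the binding site of the translation factors, stood at -3.30, -2.84 and -3.01. RPL36A (YMR194W) read -3.27, -3.37 and -2.38. These 3 genes were thus about as low on the dye-swapped array as on the others, and every array put them more than 4-fold down.

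RPL31B, which encodes a protein at the rim of the exit tunnel, read -3.49, -2.31 and -2.47 (mean -2.76 ± 0.64). RPL33B followed at -3.28, -2.43 and -2.11, RPL27B at -3.08, -2.30 and -2.37, and RPL16A at -2.68, -2.05 and -1.62. No array of these 4 genes came near 0, and the dye-swapped array was the lowest for each. Under every other processing that tested them, listed under the methods, and on subtracting each array's member median, a choice made after seeing the data, these 7 members passed the test with the same sign. The grouping into 7 was made after their values were seen, and the next lowest member was RPL37B.

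A further 14 members fell by less. RPL37B read -1.44, -1.58 and -1.27, and RPL8A read -1.93, -1.42 and -0.88. RPL13A, RPL11B, RPL21B, RPL43B, RPL14B, RPL12A and RPL20A had means between -1.33 and -1.0, and RPL34A, RPL20B, RPL37A, RPL12B and RPL17B between -0.98 and -0.71. RPL11B is a copy of the gene for a partner of the small 5S ribosomal RNA. In all of these genes but RPL37A and RPL37B the dye-swapped array was the lowest: RPL12B read -1.94 there and -0.18 and -0.20 on the other arrays. With arrays scaled to the same spread, RPL8A and RPL21B alone of these 14 passed.

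RPL15B was the member that rose, at 1.12, 0.93 and 1.40 (mean 1.15 ± 0.24, n = 3, adjusted p = 0.0011). It lost the call when arrays were scaled to the same spread, with an adjusted p of 0.116. The stalk genes RPP2A and RPP2B, whose products contact elongation factors, read 1.43 and 1.58 on array 2 and 1.36 and 1.5 on array 3, but -0.76 and -1.11 on the dye-swapped array. None of the 5 stalk genes passed the test, nor did any of the 10 single-copy genes, whose means lay between -0.86 and 0.33. All 22 calls were in duplicated genes.

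**Figure D2:**
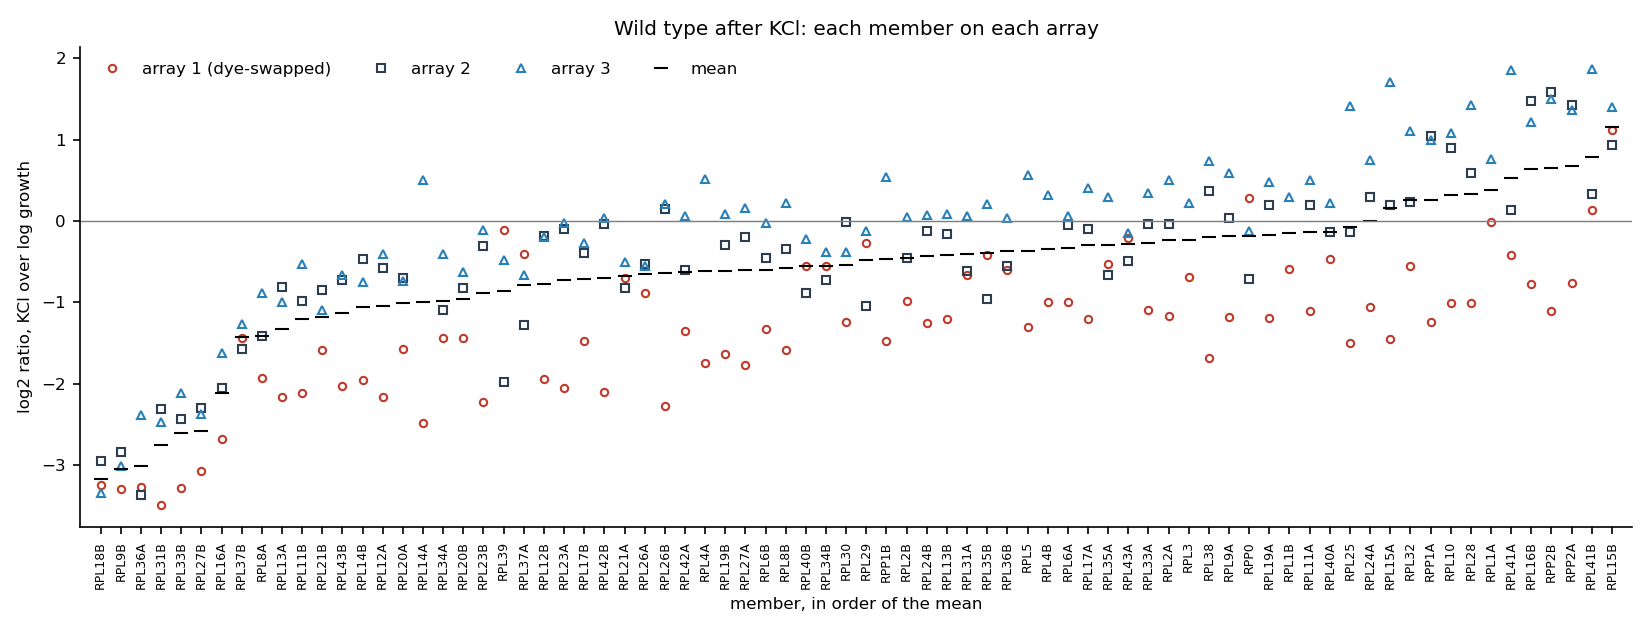
Log2 ratio of KCl over log growth in wild type for the 76 members, in order of their mean (dash), on array 1 (circles, dye-swapped), array 2 (squares) and array 3 (triangles). From RPL18B (-3.18) to RPL16A (-2.12) all 3 arrays lie far below 0. The dye-swapped array is nevertheless the lowest for RPL31B, RPL33B, RPL27B and RPL16A. For most of the remaining members it lies well below the other arrays.

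The partner copies analysed for RPL9B, RPL36A, RPL31B, RPL33B, RPL27B and RPL16A had means between -0.60 and 0.64. RPL9A read -1.18, 0.03 and 0.59 where RPL9B read about -3, a difference between copies of 2.86 ± 0.74 on the log2 scale. The copies of RPL36 differed by -2.64 ± 0.20 (A minus B), those of RPL31 by 2.35 ± 0.59, those of RPL33 by 2.34 ± 0.14 and those of RPL27 by 1.98 ± 0.62. For RPL16 the difference of -2.76 ± 0.81 combined a low RPL16A with RPL16B at -0.77, 1.48 and 1.22. RPL11 differed by 1.07 ± 0.10. In each of these 7 families the sign was the same on all 3 arrays, and the difference is within an array, so that an offset shared by both copies cancels. The median absolute difference over the 30 families was 0.44.

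Which copy was lower did not follow the letters: the B copy was the low one in RPL9, RPL31, RPL33, RPL27 and RPL11, the A copy in RPL36 and RPL16. Families such as RPL20 (-0.04 ± 0.14), RPL35 (0.09 ± 0.20) and RPL23 (0.15 ± 0.07) differed little. Across all arrays with both copies the correlation between copies ran from 0.03 for RPL15 and 0.27 for RPL9 to 0.96 for RPL1 and 0.97 for RPL35. These correlations describe 43 to 54 arrays that share slides and reference strains, and whether similar probes share signal was not tested.

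**Figure D3:**
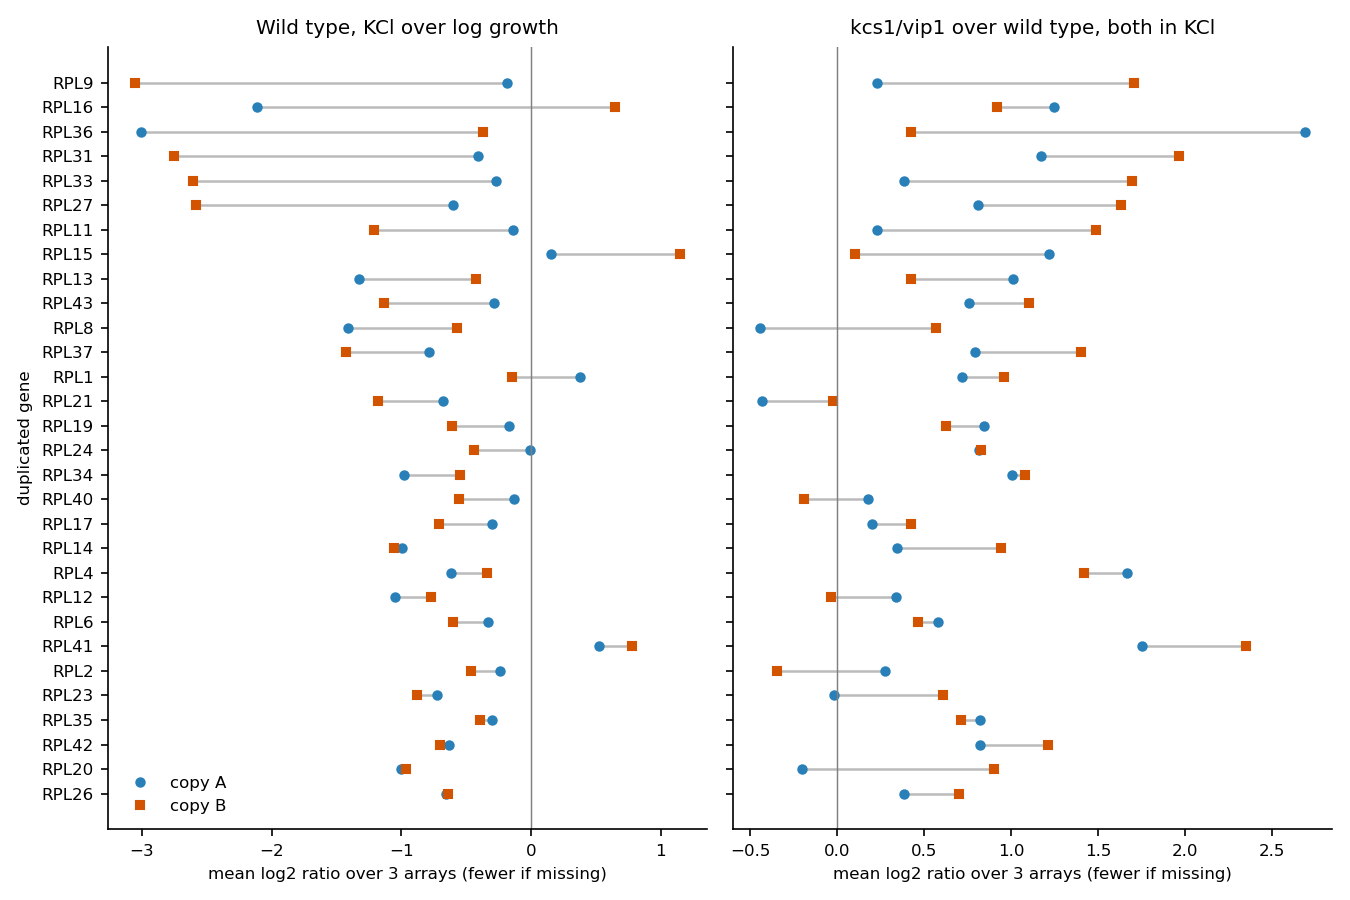
Mean log2 ratios of copy A (circles) and copy B (squares) in 30 duplicated families, in order of their difference in wild type after KCl, for wild type in KCl over log growth (left) and kcs1/vip1 over wild type in KCl (right). On the left the low copies of RPL9, RPL36, RPL31, RPL33 and RPL27 lie 1.98 to 2.86 below their partners, and on the right the same copies, compared with KCl-treated wild type, lie above theirs.

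Under H2O2 the members split in wild type cells. Of 76 tested, 7 fell, against 21.4% of all genes, and 6 rose, against 22%. RPL18B was again the lowest, at -1.60 and -1.47 on the 2 arrays (SD 0.09, adjusted p = 8.14e-06 in limma). RPL31B read -1.50 and -0.70, and RPL9B read -1.33 and -0.79. RPL27B, RPL21B, RPL8A and RPL14B also fell, with means between -1.01 and -0.94. All arrays of these 7 genes lay below -0.5.

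The genes that rose in H2O2 were led by the stalk. RPP2B read 1.39 and 1.79, RPP2A 1.42 and 1.33, and RPP1B 0.84 and 1.35, and all 3 passed the test, while RPP0 (0.43 and 1.27) and RPP1A (0.65 and 1.53) did not. RPL4A, whose protein reaches into the exit tunnel, rose with a mean of 1.13, RPL16B with 1.07 and RPL1B, a gene of the stalk on the tRNA exit side, with 0.77. With a dye term none of the 6 passed and 13 members fell, RPL18B, RPL31B, RPL9B, RPL36A and RPL33B among them. Leaving out either array left no risen member and 1 or 5 fallen ones. In the fit with both arrays and no dye term, the share of members called was below that of all genes in either direction.

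Heat and rapamycin were measured on 1 array each in wild type, which allows no test and no replicate check. In heat 44 members lay below a 2-fold decrease, against 18.1% of all genes on that array, and 1 lay above a 2-fold increase, against 15.8%. RPL27B was lowest at -3.15, followed by RPL11A and RPL21A at -2.28. The 5 stalk genes lay between -0.13 and 1.12, with RPP2B at 1.12, RPP1A at 0.86 and RPP0 at 0.84, while the median over members was -1.08. RPL18B was at -1.82, RPL36A at -1.69 and RPL16A at -2.01, but RPL31B only at -0.66.

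With rapamycin 63 of 76 members lay below a 2-fold decrease, against 16.8% of all genes, and the median over members was -1.50. The median over all genes of that array was 0.38, and 28.1% of all genes lay above a 2-fold increase. RPL12A was lowest at -3.45, then RPL16B at -2.92, RPL1B at -2.90, RPL1A at -2.85 and RPP0, the core of the stalk, at -2.78. RPL15B was alone above 0, at 1.32, and its partner RPL15A lay 3.07 below it. All 5 stalk genes were below a 2-fold decrease here, whereas the ubiquitin fusion genes RPL40A (-0.98) and RPL40B (-0.66) were not.

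The members lowest after KCl were not the lowest with rapamycin. RPL18B stood at -1.43, RPL9B at -1.67, RPL36A at -1.54, RPL31B at -1.07, RPL33B at -1.50, RPL27B at -1.69 and RPL16A at -1.60, around the member median of -1.50. The copies of a family differed by a median of 0.17 with rapamycin and 0.44 with KCl. Both comparisons used wild type in log growth as reference, and the 2 values were not tested against each other. The members named here were chosen by their KCl values.

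In kcs1/vip1, which lacks both kinases that make inositol pyrophosphates, few members differed from wild type in log growth. Of 76 tested, 4 fell, against 19% of all genes, and 4 rose, against 18.9%. RPL8A read -1.62, -1.62 and -1.28 (mean -1.51 ± 0.20, adjusted p = 1.71e-06 in limma), and RPL18B read -1.01, -1.02 and -1.17. RPL21A (mean -0.91) and RPL20A (-0.75) also fell. RPP2A (1.42), RPL10 (1.23), RPL16B (1.09) and RPL1B (0.81) rose, and none of these 4 passed with a dye term. With that term RPL8A, RPL18B, RPL17B and RPL3 fell, and RPL21A and RPL20A were not called.

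Among KCl-treated cells, kcs1/vip1 had higher ratios than wild type for many members. Of 76 tested, 36 rose, against 24.8% of all genes, and none fell, against 25.6%. RPL36A read 4.12, 2.07 and 1.87 (mean 2.69 ± 1.25, n = 3), RPL31B 2.80, 1.43 and 1.66, and RPL9B 1.95, 1.44 and 1.73. RPL33B (mean 1.69), RPL27B (1.63), RPL11B (1.49), RPL16A (1.24) and RPL18B (0.55) rose as well, so that all 7 members most lowered by KCl in wild type were among them. Wild type in KCl is the reference here and the treated sample there, so the comparisons are not independent.

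Members with small wild type changes were among the 36 too. RPL41A and RPL41B, which encode the smallest protein of the subunit, had means of 1.75 and 2.35, but array 1 (3.30 and 4.86) was far above arrays 2 and 3 (1.01 and 0.94 for RPL41A, 1.48 and 0.70 for RPL41B). RPL38 (1.72), RPL4A (1.66) and RPP2A (1.60) followed. RPL8A read -0.34, -0.41 and -0.58 and RPL21A -0.69, -0.18 and -0.43, without passing the test. In a fit with a dye term 7 members rose (RPL36A, RPL9B, RPL31B, RPL27B, RPL33B, RPL11B and RPL16A). After each array was set against its member median 10 rose, against 5.56% of all genes, and 10 fell, against 45.4%. That subtraction shifts every gene of an array, so the last 2 shares of all genes follow from the shift. Scaling the arrays to the same spread left 12 risen, against 16.1% of all genes. Leaving out 1 array gave 14 to 41 risen members. This range and the count with a dye term were not set against all genes.

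The test of KCl minus log growth asks whether the difference between kcs1/vip1 and wild type changed with KCl, and an effect of dye orientation cancels in it, since all 6 arrays share 1 orientation. Of 76 members tested, 10 were higher in KCl than in log growth, against 13.4% of all genes, and none was lower, against 13.8%. The share of members that rose, 13.2%, was thus near that of all genes. A dye term gave 12 members, the slide as a fixed block 11 and scaling of the arrays 6. Leaving out 1 array gave 7 to 22, the last without array 1 of log growth. None of these counts was set against all genes.

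RPL36A had the largest difference, 2.59 ± 0.51 (SE, adjusted p = 0.000195 in limma), between log growth values of 1.41, -0.59 and -0.54 and KCl values of 4.12, 2.07 and 1.87. RPL31B differed by 2.14 ± 0.45, RPL9B by 2.03 ± 0.33 and RPL33B by 1.91 ± 0.48. RPL9B read -0.19, -0.53 and -0.25 in log growth, and all 3 of its KCl arrays were above 1.4. RPL18B differed by 1.62 ± 0.28, from values near -1 in log growth to 1.22, 0.16 and 0.28 in KCl.

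RPL27B (1.54), RPL37B (1.42), RPL11B (1.33), RPL34A (1.25) and RPL8A (1.06) completed the 10. The KCl and log growth arrays did not overlap for any of them but RPL33B and RPL37B. On the 2 slides that carried an array of each kind, the difference for RPL36A was 2.71 and 2.66, for RPL9B 2.14 and 1.97, for RPL31B 1.88 and 2.56 and for RPL18B 2.23 and 1.18. The median over all members on these slides was 0.33 and 1.18. Relative to the member median of each array, RPL36A, RPL31B, RPL9B, RPL33B and RPL27B passed the same test, while RPL18B (adjusted p = 0.110) and RPL8A (adjusted p = 0.437) did not. RPL16A was not called.

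**Figure D4:**
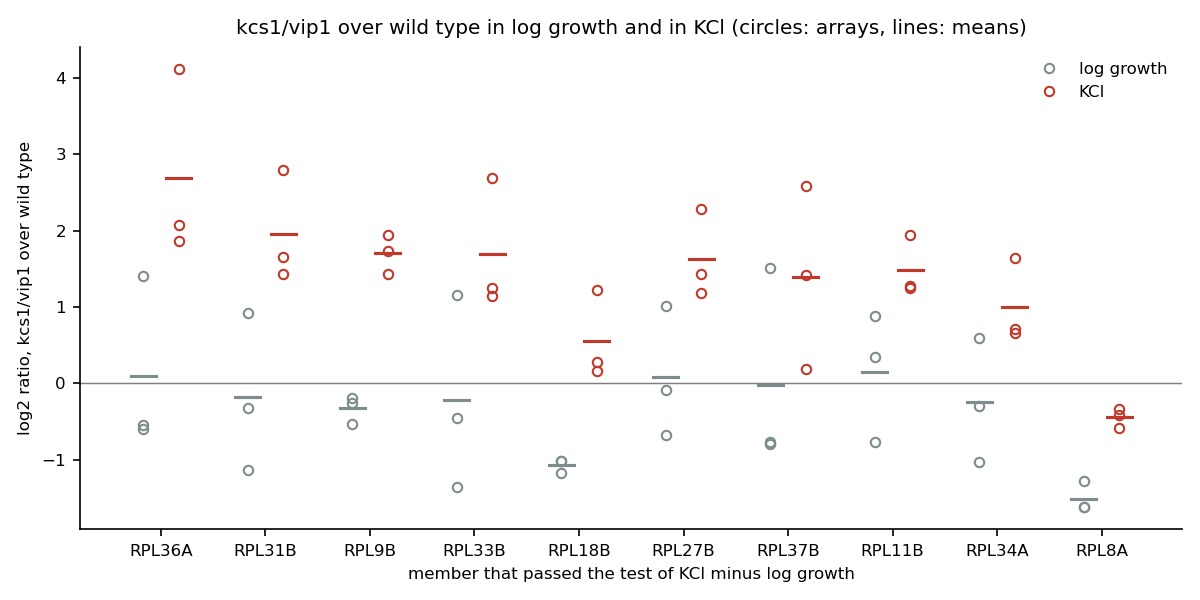
Log2 ratios of kcs1/vip1 over wild type in log growth (grey) and in KCl (red) for the 10 members that passed the test of the difference, with 1 circle for each of 3 arrays and a line at the mean. RPL36A shows the largest step, from a mean of 0.09 to 2.69, and RPL8A stays below 0 in both.

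A single array used here set kcs1/vip1 in KCl directly against kcs1/vip1 in log growth. Another array with a title of this kind was left out, since its channel labels name KCl-treated cells in both channels. There 14 members lay below a 2-fold decrease, against 12.9% of all genes, and 11 above a 2-fold increase, against 15.2%. RPL33B was lowest at -1.95, followed by RPL21A (-1.82), RPL36A (-1.74), RPL31B and RPL40B (both -1.69), RPL27B (-1.67) and RPL18B (-1.65). RPL21A and RPL40B were not called in wild type with KCl. RPL9B and RPL16A both read -1.08. The genes most lowered by KCl in wild type thus lay below 0 in the mutant as well, at values between -1.95 and -1.08. Their wild type means were between -3.18 and -2.12, a difference not tested on this array. These genes were chosen by those wild type means, so the ranges are not an even comparison.

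Compared with the single mutants in KCl, kcs1/vip1 exceeded vip1 for RPL9B (difference 1.58 ± 0.33, adjusted p = 0.00116 in limma) and RPL36A (1.51 ± 0.51, adjusted p = 0.037). These 2 of 76 members stand against 9.12% of all genes that rose and 6.74% that fell. RPL9B in vip1 read 0.18, -0.05 and 0.26. Against kcs1 no member passed, with 8 at an unadjusted p under 0.05, and 9.62% of all genes rose and 5.66% fell. Scaling the arrays or a fixed slide block left 1 member in the difference from vip1, and a dye term gave 4, with RPL4A and RPL4B added.

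In H2O2 kcs1/vip1 exceeded wild type for 5 of 76 members, against 3.34% of all genes that rose and 1.68% that fell. These were RPL4B (1.12 and 1.88), RPP2A (1.29 and 1.69), RPL4A (1.35 and 1.61), RPL10 (1.25 and 1.48), which joins the subunit late in its assembly, and RPL1B (0.92 and 1.29). None of the 5 passed with a dye term or when either array was left out. On the array labelled kcs1/vip1 over wild type in heat, 7 members lay below a 2-fold decrease (8.61% of all genes) and 6 above an increase (15.2%), from RPL13A at -1.92 to RPL41B at 2.83. On the array of kcs1/vip1 in H2O2 over its own log growth 2 lay below (0.44%) and 11 above (3.52%), from RPL39 at -1.39 to RPP2A at 1.91.

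Rapamycin added together with KCl to kcs1/vip1, compared with KCl alone, addressed the order of inositol pyrophosphates and TOR signalling. Of 76 members 9 rose, against 2.48% of all genes, and 2 fell, against 2.58%. RPL4A read 1.96, 1.49 and 1.79, RPL4B 1.10, 1.31 and 1.69, and RPP2B 1.68, 0.89 and 1.81. RPL16B, RPP2A, RPL10, RPL1B, RPL1A and RPL3, the last lying near the peptidyl transferase centre, rose with means from 1.26 to 0.87. All arrays of these 9 genes were above 0.5.

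RPL21B (-0.82, -1.69 and -0.19) and RPL8A (-0.79, -0.96 and -0.38) fell. With a dye term no member rose and 5 fell (RPL33B, RPL36A, RPL31B, RPL36B and RPL8A), and leaving out 1 array left 1 to 4 risen members. RPL36A read a mean of -0.92 and RPL33B of -0.91 without passing the test. In wild type with rapamycin, on 1 array and against log growth, RPL4A stood at -2.63, RPL16B at -2.92 and RPL1B at -2.90, the opposite sign to the values above. The reference, strain and stress differ between these comparisons, and no test was made between them.

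In vip1 in log growth the member medians of the 2 arrays, 2.44 and 1.30, were above those of every other mutant in log growth. Of 45 members that could be tested, 36 rose, against 9.12% of all genes, and none fell, against 9.97%. The other 31 lacked a value on at least 1 array and included all 5 stalk genes. RPL21A read 4.56 and 4.30 (mean 4.43 ± 0.18, n = 2), RPL41A 4.84 and 3.76, and RPL39, a small protein that lines the exit tunnel, 4.34 and 3.78. RPL32 (3.17), RPL29 (3.16), RPL35A (3.04), RPL2B (2.93) and RPL35B (2.86) followed. Adding a dye term left 23, and leaving out either array also lowered the count. These changes were not set against all genes.

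RPL18B (-0.29 and -0.37), RPL9B (0.42 and -0.33) and RPL15B (0.51 and 0.44) did not pass, and the member median of array 1 (2.44) was above that of array 2 (1.30). Set against their array's member median, 12 members were higher, against 0.276% of all genes, and 12 lower, against 91.8%. That subtraction shifts every gene of an array, so these shares of all genes follow from the shift and do not set the members apart. In KCl vip1 differed from wild type less: 4 of 76 rose, against 4.63% of all genes, and none fell, against 4.77%. They were RPL37B (1.42, 1.61 and 0.67), RPL36A (1.22, 0.97 and 1.33), RPL30 (0.72, 1.33 and 1.31), which regulates the splicing of its own transcript, and RPL31B (1.08, 0.84 and 1.30). None passed with a dye term or with any 1 array left out. Scaling arrays to the same spread gave 33, a count not set against all genes under that scaling.

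The test of KCl minus log growth in vip1 found 14 of 45 members lower in KCl, against 2.99% of all genes, and none higher, against 2.69%. RPL21A differed by -4.75 ± 0.47 (SE, adjusted p = 1.28e-07 in limma), since its KCl arrays read -0.37, -0.38 and -0.22. On the 2 slides with both kinds of array its difference was -4.93 and -4.68. RPL39 (-3.03), RPL41A (-2.86), RPL2B (-2.64) and RPL40B (-2.63) were next, and RPL40A, RPL35A and RPL35B were among the 14. The dye term gave 15 and the fixed slide block 13, counts not set against all genes. Leaving out an array left 1 to 12, and the single call, RPL21A, was reached without array 1 of vip1 in log growth. Set against the member median, 6 were lower, against 0.186% of all genes, and 5 higher, against 49.7%, shares that again follow from the subtraction.

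The arg82 and ipk1 strains lack kinases upstream of Kcs1 and Vip1. In arg82 in log growth 7 of 41 members rose, against 7.63% of all genes, and 1 fell, against 9.58%. The other 35 lacked a value on at least 1 array and were not tested, RPL41B (2.74) and RPL3 (-1.22) among them. The genes that rose were RPL31A (1.73 and 1.5), RPL27A, RPL19B, RPL35A, RPL19A, RPL40A and RPL13B, and RPL18B (-0.91 and -1.0) fell. In KCl 13 of 75 rose, against 13.9%, and RPL8A fell (18% of all genes fell). RPL36A (1.18, 1.46 and 1.32), RPL31B (0.95, 0.87 and 1.31), RPL37B (1.81, 1.25 and 0.87), RPL29 (1.56, 1.83 and 0.65) and RPL9B (0.84, 0.79 and 0.73) rose on all 3 arrays. RPL4A, RPL16B, RPL4B, RPP2B, RPL1B, RPL10, RPL30 and RPL1A had values on 2 of the 3 arrays. Once a dye term was added no arg82 member rose and 1 fell in each comparison (RPL18B in log growth, RPL8A in KCl), and leaving out 1 array left 0 or 1 call in log growth and 2 to 5 in KCl.

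In ipk1 in log growth 30 of 63 members rose, against 12.6% of all genes, and none fell, against 12.3%. RPL23B read 1.15 and 3.58, RPL26B 0.83 and 3.22, RPL30 1.56 and 1.88, and RPL28 1.63 and 1.44. Leaving out array 2 gave 0 calls and leaving out array 1 gave 35, 1 of them below 0. A dye term left 1 and scaling 4, counts not set against all genes. In KCl 23 of 76 rose, against 11.4%, and none fell, against 12.4%. RPL31B read 1.67, 1.5 and 1.66, RPL36A 1.30, 1.41 and 1.63, and RPL9B 1.02, 2.10 and 0.63, and RPL18B, RPL33B, RPL27B and RPL16A rose as well. With a dye term 2 rose in ipk1 in KCl, and leaving out 1 array gave 7 to 32, again not set against all genes.

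For KCl minus log growth no member passed in arg82, ipk1 or kcs1, with or without a dye term, where 3 of 41, 3 of 63 and 7 of 76 had an unadjusted p under 0.05. Among all genes 2.51% rose and 1.31% fell in arg82, 0.018% and 0% in ipk1, and 0% and 0% in kcs1. In kcs1 in log growth no member passed either, with 22 at an unadjusted p under 0.05 (0.254% of all genes rose and 0.186% fell), and none with a dye term, although the array medians over members were 0.58 and 0.59. Scaled to the same spread, 15 of 76 rose, against 3.69% of all genes. These 2 arrays had a correlation of -0.03 over the members, and array 2 is the one on which KCS1 was not low. In KCl RPL9B (0.63 and 1.29) was the 1 member of 76 that rose, against 2.71%, and none fell, against 5.26%. It did not pass with a dye term (adjusted p = 0.172) or with either array left out.

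Strains altered in histone deacetylase complexes showed few calls. In snt1 RPL21A fell in log growth (-1.38 and -1.02), 1 of 55 members against 5.51% of all genes, while none rose (4.81%). In KCl RPL21A (-1.32 and -1.44) and RPL40B (-0.89 and -1.35), whose product carries a ubiquitin, fell, 2 of 69 against 4.57%, and none rose (3.3%). None of these passed with a dye term or with either array left out. Between KCl and log growth no member passed, with 1 at an unadjusted p under 0.05, and 0% of all genes moved either way.

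In Rpd3ibs in log growth RPP2A (1.46 and 1.03), RPL16B (1.23 and 1.12) and RPL5 (1.18 and 0.81), another partner of the 5S RNA, rose, 3 of 76 against 10.3% of all genes, and none fell (10.1%). In KCl 6 rose, against 15.7%, and none fell (16.2%). RPP2A read 1.64 and 1.68, RPL16B 1.36 and 1.69, and RPL18B 0.82 and 0.56. None passed with a dye term in either condition. The difference between KCl and log growth gave no call, with 1 member at an unadjusted p under 0.05 (4.29% of all genes rose and 2.57% fell).

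In rpd3, with 1 array each, 10 members lay below a 2-fold decrease in log growth (8.61% of all genes) and 5 above an increase (12.6%), from RPL40B at -1.46 to RPP2B at 1.35. In KCl 7 lay below (15%) and 9 above (18.6%), with RPL4B at 1.78, RPL9B at 1.77 and RPL18B at 1.38. In Vip1D487A no member was called in log growth, in KCl or between them, with 3 of 58, 3 of 67 and 0 of 57 at an unadjusted p under 0.05. Among all genes 0% rose and 0.0359% fell in log growth, 1.58% and 0.569% in KCl, and 0% and 0% between them. Its arrays of opposite orientation put the member median at 0.13 and -0.71 in log growth and 0.37 and -0.62 in KCl, and neither turning the sign of the swapped arrays nor a dye term gave a call. Scaled to the same spread, 9 of 58 members fell and 1 rose in log growth, against 6.87% and 5.28% of all genes, and 1 of 67 fell in KCl.

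Across comparisons some members kept a place within the family on unswapped arrays. Of those named here, which were chosen after their values were seen, only RPL16B kept it on most swapped arrays. RPP2A lay above the member median of its array on 42 of 44 unswapped arrays and on 1 of 3 swapped ones, with a median departure of 1.07 on the unswapped ones. RPP2B lay above on 38 of 41 and 1 of 3, RPL38 on 44 of 46 and 0 of 3, and RPL16B on 40 of 43 and 3 of 3. At the other end RPL21A lay below on 46 of 51 unswapped arrays and on 0 of 3 swapped ones, and RPL20A on 47 of 51 and 1 of 3. Across the 76 members the median departure and the dye term had a correlation of 0.78 (Spearman 0.77), a description over genes that share all arrays. RPP2A, RPP2B and RPL16B lay below the member median with rapamycin in wild type, on 1 array. In vip1 in log growth they had a value on array 2 only and lay below its member median (-0.18, -0.54 and -0.18). RPP2A and RPP2B also lay below the member median in Vip1D487A in log growth, where only the swapped array held a value for them.

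**Figure D5:**
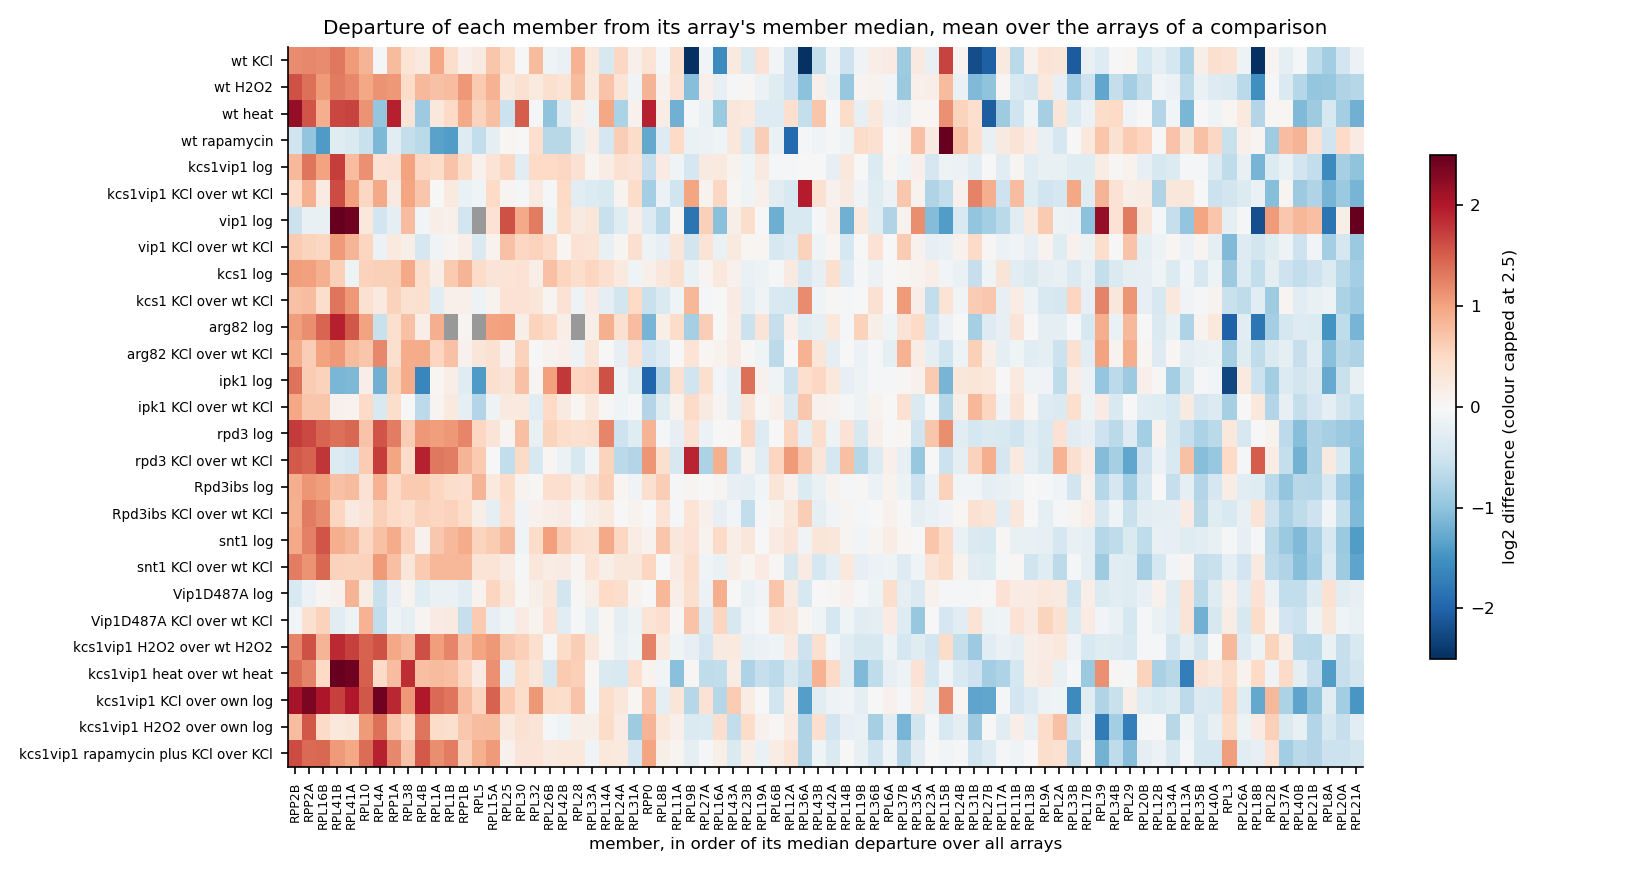
Departure of each member from the member median of its array, averaged over the arrays of a comparison (1 line each), with members in order of their median departure over all arrays, and grey for no value. Columns at the left (RPP2B, RPP2A, RPL16B) are red in most lines, but blue with rapamycin and pale for vip1 and Vip1D487A in log growth, and RPL18B, RPL9B, RPL36A, RPL31B, RPL33B and RPL27B are dark blue for KCl in wild type.

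Genes around the large subunit gave values in the same comparisons. Of 55 small subunit genes, 19 fell and none rose in wild type with KCl (median -0.48), where 31.3% of all genes fell, with RPS27A at -3.58 and RPS9A at -3.42. In kcs1/vip1 over wild type in KCl 21 of them rose, where 24.8% of all genes did. All 6 measured chaperones dedicated to ribosomal proteins or pre-ribosomes fell in wild type with KCl, among them PUF6 (-5.42 ± 1.05) and RRB1 (-4.21 ± 0.78), the latter binding Rpl3, and all 6 were higher in kcs1/vip1 in KCl than in wild type and in the test of KCl minus log growth. The chaperones had a median of -2.75 in wild type with KCl and of 2.18 in KCl minus log growth, where the members had -0.51 and 0.54. Of 11 regulators 4 fell and 5 rose in wild type with KCl: IFH1, the activator, fell by 1.80, and YAK1, a kinase that acts against growth, rose by 3.37. The 35 genes of the mitochondrial large subunit had 15 that fell (31.3% of all genes) and 2 that rose (29.6%) with KCl in wild type, and a median of 1.2 with rapamycin, where the members had -1.50.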

How the data were processed

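2-colour arrays of yeast RNA were analysed from the value table that the authors deposited, which holds log2 ratios (the base is not stated and was read as 2). How the authors normalized or centred the ratios, and the genome build, are not given in the sources used here. Of 6317 entries 61 control spots were left out, and symbols were matched to RefSeq names. In 3 columns with more decimals, 407 exact zeros were set to missing. Each array's direction was taken from its labels, and deleted genes with a value read low in this direction on unswapped arrays, with 2 exceptions. The 3 dye-swapped arrays, which give no such check, were used with the sign as deposited. 1 array with conflicting labels was left out of every comparison. Its title sets kcs1/vip1 with KCl against kcs1/vip1, while its channel labels name KCl-treated cells in both channels.

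A group-means model was fitted to 54 arrays with limma 3.58.1 in R 4.3.3 by exact least squares per gene, and variances were then moderated (prior degrees of freedom 4.63, against 27 residual ones where no value is missing). Genes needed 2 values in each group. SE are moderated, SD are over arrays. Single arrays were counted past 2-fold only. Precision is limited by how few arrays a group has. The fit was also run on simulated data with known changes, and its outcome there is not used here. Alternatives were array centring, scaling, complete genes, a limit of 10 on the absolute ratio, slide blocks, a dye term, robust moderation, zeros kept, probe choice, a coefficient per RNA source, and leaving out arrays. Named genes are the 12 lowest and 8 highest called members with all arrays in 1 direction (or groups not overlapping) in the main comparisons, 3 and 3 elsewhere; others were chosen after their values were seen. Members, lists and tests were chosen with earlier results of these data known. Promoter and protein sequences were not used here. Figures were made with matplotlib 3.10.9.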

Additional observations from a re-analysis of the deposited data

Results flagged for a closer look

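In kcs1/vip1, 10 of 76 members differed between the KCl and the log growth comparison with wild type by a test of the difference in limma. All 10 were higher in KCl, a share of 13.2%, near the 13.4% of all genes that rose, while 13.8% fell. Members were named here only if their KCl and log growth arrays did not overlap, which left out RPL33B and RPL37B. RPL36A differed by 2.59, RPL31B by 2.14, RPL9B by 2.03, RPL18B by 1.62, RPL27B by 1.54, RPL11B by 1.33, RPL34A by 1.25 and RPL8A by 1.06 on the log2 scale.

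In vip1 the same test called 14 of 45 members tested, all lower in KCl, against 2.99% of all genes, and 31 members were not tested. The 14 were led by RPL21A (-4.75), RPL39 (-3.03) and RPL41A (-2.86). Of 76 members, 2 differed between kcs1/vip1 and vip1 in KCl, RPL9B by 1.58 and RPL36A by 1.51, where 9.12% of all genes rose and 6.74% fell. 1 array outside every comparison had a median over the members of -0.175. Its channel labels name KCl-treated cells in both channels, while its title sets kcs1/vip1 with KCl against kcs1/vip1.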

How the results depend on the processing

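Each alternative is given by its number of called members, with risen and fallen members counted in a single total. Calls of all genes change with the processing too, and shares of all genes are not given in this section. A higher or lower count here thus does not by itself set the members apart from all genes. Scaled to the same spread, wild type had 9 in KCl and 2 in H2O2, kcs1/vip1 had 4 in log growth, 12 in KCl, 6 for KCl minus log growth, 17 in H2O2, 28 with rapamycin and KCl, and 1 against vip1. Under the same scaling there were 33 in vip1 in KCl, 14 in arg82 in log growth, 4 in ipk1 in log growth and 14 in KCl, 4 and 6 in snt1, 0 and 2 in Rpd3ibs, 15 and 4 in kcs1, and 10 and 1 in Vip1D487A (log growth, then KCl). With a dye term kcs1/vip1 had 4 in log growth, 7 in KCl, 1 in H2O2, 5 with rapamycin and KCl, and 4 against vip1. For vip1 that term gave 23 (log growth) and 0 (KCl), with 1 and 1 in arg82, 1 and 2 in ipk1, 0 and 0 in snt1 and Rpd3ibs, and 0 in kcs1 in KCl.

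With the member median subtracted, an alternative chosen after seeing the data, kcs1/vip1 had 20 in KCl, 5 for KCl minus log growth, 3 in H2O2 and 1 against vip1, vip1 had 1 in KCl, arg82 4 and 3, ipk1 7 and 3, snt1 0 and 0, Rpd3ibs 0 and 2, and kcs1 0 in KCl. Over genes with a value on every array, which leaves 34 members, there were 7 in wild type in H2O2, 4, 16, 0 and 2 in kcs1/vip1 (log growth, KCl, H2O2, rapamycin and KCl), 6 in arg82 in KCl, 12 and 14 in ipk1, and 1 and 1 in Rpd3ibs. With the slide as a random block (correlation 0.301) there were 1 in kcs1/vip1 in H2O2 and 5 with rapamycin and KCl, 0 and 1 in snt1 and 3 in kcs1 in KCl. Robust moderation left 2 in kcs1/vip1 in H2O2, and a fixed slide block, which the 20 comparisons against 0 could not use, left 1 against vip1. The cause of these shifts was not tested.

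Leaving out 1 array gave 20 to 28 in wild type in KCl, 1 to 5 in H2O2, 5 to 8 in kcs1/vip1 in log growth, 14 to 41 in KCl, 7 to 22 for KCl minus log growth, 2 to 4 with rapamycin and KCl, 1 to 3 against vip1 and 0 to 1 against kcs1. It gave 13 to 31 in vip1 in log growth, 1 to 12 for KCl minus log growth, 0 to 1 and 2 to 5 in arg82, 0 to 35 and 7 to 32 in ipk1, 0 to 2 for its difference, and 0 to 1 in Rpd3ibs in KCl. It gave 0 for kcs1/vip1 in H2O2, vip1 and kcs1 in KCl, snt1 in both conditions and Rpd3ibs in log growth. No named member changed sign, and the dye term ended 49 of 91 named calls. No paired analysis was possible because the labels give no replicate numbers, except by slide, which entered the 10 differences between groups as a fixed block. Few arrays limit the precision, and 31 members of vip1 in log growth were not tested.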
